A study of Mus musculus with 18 samples.

Results

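The prostaglandin synthesis and receptor genes were followed in cultured mouse tail tendon fibroblasts (TFs) by bulk poly-A RNA-seq. They are 10 of the 55491 rows of the count table, picked by gene symbol: the synthesis genes *Ptgs1*, *Ptgs2*, *Ptges*, *Ptgis* and *Ptgds*, the degradation gene *Hpgd*, and the prostaglandin E2 receptor genes *Ptger1*, *Ptger2*, *Ptger3* and *Ptger4*. The family was chosen because *Ptgs2* was lower in cKO than in Ctrl libraries in 1% O2, so that comparison is described below for every member and was not tested. The 18 libraries form 6 groups of 3, each kept for 4 days in 20% or 1% O2. Ctrl TFs were labelled wild-type and came, according to the methods, from Cre-negative littermates in a colony carrying floxed *Hif1a*, the gene of the oxygen-regulated transcription factor HIF-1α. The cKO TFs came from mice in which the *Scx* promoter, active mainly in tendon cells but not perfectly restricted to them, drives Cre recombinase against floxed *Hif1a*. The remaining groups were Ctrl TFs given Cre gesicles, vesicles that carry the recombinase into cultured cells, and then kept in 20% or 1% O2. All TFs grew out of tail tendon, which does not bear load, from 4- to 6-month-old mice of both sexes on a mixed C57BL6J and 129S1 background.

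Prostaglandins are short-range lipid signals made from arachidonic acid. A cyclooxygenase, the product of *Ptgs1* or *Ptgs2*, forms prostaglandin H2, which terminal synthases then turn into prostaglandin E2, prostacyclin or prostaglandin D2. Prostaglandin E2 acts on 4 receptors and is inactivated by the dehydrogenase that *Hpgd* encodes. In tendon it is known as a product of mechanically loaded or inflamed cells.

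The start regions of 4 members are shown because these members carry the differences described below, by genotype for *Ptgs2* and by O2 for *Ptgs1*, *Ptges* and *Hpgd*. Each runs 5′ to 3′ along the strand of the gene, from 250 bases before to 50 bases after the start that RefSeq annotates on GRCm38.p6. They are chr1:150099781-150100080 on the plus strand for *Ptgs2*, chr2:36230176-36230475 on the plus strand for *Ptgs1*, chr2:30903248-30903547 on the minus strand for *Ptges* and chr8:56294302-56294601 on the plus strand for *Hpgd*. The *Ptges* region lies inside the span of the gene, which has 4 annotated transcripts and begins upstream at 30929863. Other starts were not searched. Capitals mark every match, on either strand, to the motifs searched: ACGTG with GCGTG (the core of the element that HIF factors bind), CACGTG (the E box, which contains ACGTG on both strands), TGACGT (part of the cyclic AMP response element) and TATAAA (the TATA box).
Ptgs2: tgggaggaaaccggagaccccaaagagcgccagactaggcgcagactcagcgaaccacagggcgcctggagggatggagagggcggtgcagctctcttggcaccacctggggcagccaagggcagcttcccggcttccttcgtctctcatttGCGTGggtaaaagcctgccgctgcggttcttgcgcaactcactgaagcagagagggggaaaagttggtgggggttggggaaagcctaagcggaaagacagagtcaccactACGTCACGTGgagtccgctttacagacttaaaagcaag
Ptgs1: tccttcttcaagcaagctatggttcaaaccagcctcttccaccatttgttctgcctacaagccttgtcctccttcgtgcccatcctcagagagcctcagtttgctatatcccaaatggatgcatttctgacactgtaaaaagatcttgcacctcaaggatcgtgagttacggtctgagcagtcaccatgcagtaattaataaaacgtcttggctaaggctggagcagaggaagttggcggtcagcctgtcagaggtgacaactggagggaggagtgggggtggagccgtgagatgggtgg
Ptges: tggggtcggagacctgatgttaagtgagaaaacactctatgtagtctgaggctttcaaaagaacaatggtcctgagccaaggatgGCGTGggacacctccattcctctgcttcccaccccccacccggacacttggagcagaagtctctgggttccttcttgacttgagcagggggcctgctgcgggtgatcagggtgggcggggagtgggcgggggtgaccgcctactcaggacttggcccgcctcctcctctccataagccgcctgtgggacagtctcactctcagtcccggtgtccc
Hpgd: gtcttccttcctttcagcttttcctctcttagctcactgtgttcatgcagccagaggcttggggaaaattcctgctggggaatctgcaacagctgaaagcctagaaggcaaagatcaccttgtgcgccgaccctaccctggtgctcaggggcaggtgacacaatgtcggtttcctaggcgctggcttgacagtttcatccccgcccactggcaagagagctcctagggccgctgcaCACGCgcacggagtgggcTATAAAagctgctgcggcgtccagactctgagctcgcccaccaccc

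In the *Ptgs2* region GCGTG lay at -98 to -94 from the annotated start. Its second run of capitals held TGACGT on the opposite strand at 13 to 18 and, overlapping it, the palindrome CACGTG at 17 to 22, which gives ACGTG on both strands. The *Ptges* region held GCGTG at -165 to -161, and the *Hpgd* region held GCGTG on the opposite strand at -14 to -10 and TATAAA at 5 to 10. The *Ptgs1* region matched none of these letters in this window. Such matches are common. Of 32851 regions of this length, 32.4% held GCGTG, 19.6% ACGTG, 13.6% TATAAA, 7.51% TGACGT and 7.15% CACGTG. RefSeq regions were matched for 8 of the 10 members, all but *Ptgis* and *Ptger1*.

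Library totals ranged from 26967440 to 51806453 estimated counts except in cKO replicate 1 in 1% O2, which held 6857558. All 9 tendon fibroblast markers examined, among them *Scx*, *Tnmd* and *Col1a1*, exceeded 1 CPM (counts scaled to a common library size) in every library, and markers of endothelial cells, mast cells, keratinocytes and adipocytes were at or near 0. Of the leukocyte markers, *Cd14* measured 6.27 to 16.0, *Cd68* 0.331 to 2.66 and *Csf1r* 0.425 to 2.36 CPM, while *Ptprc*, *Adgre1* and *Itgam* reached at most 0.162 CPM. Of the cartilage markers, *Sox9* measured 20.6 to 50.8 CPM, while *Col2a1* reached 3.68 and *Acan* 0.0232 CPM. *Hif1a* itself was not lower in the libraries labelled cKO, at 377 ± 72.8 CPM in 20% O2 against 348 ± 19.6 in Ctrl (SD, n = 3 each; edgeR adjusted p = 0.757). The count covers the whole gene and so does not check the loss of its floxed part. The paper reports lower *Hif1a* by quantitative PCR in tail TFs of the knockout mice, after a longer culture than here. Cre reads were present in 5 of the 6 libraries labelled cKO, at 1 to 5 counts, and in 0 of the other 12. *Xist* was at 0 in replicate 1 of each Ctrl and gesicle group and in replicates 2 and 3 of each cKO group, so the sexes of the mice were not balanced between genotypes.

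Per kilobase of exon, which allows different genes to be compared, *Hpgd* had the highest mean over all 18 libraries, at 54.0 ± 44.0 CPM per kb (SD). It came first only through the 1% O2 groups, with group means of 64.8 to 103 CPM per kb. In the 20% O2 groups its means were 17.4 to 23.2 CPM per kb, below those of *Ptgs1* at 26.6 to 34.7. Over all libraries *Ptgs1* followed at 38.9 ± 9.92, *Ptgs2* at 29.9 ± 11.6 and *Ptges* at 26.6 ± 8.38 CPM per kb, and the ranges of these 4 members overlapped. *Ptgis* stood at 9.72 ± 3.38 and *Ptger4* at 4.31 ± 0.923 CPM per kb, and the lowest *Ptgis* library fell within the range of *Ptger4*. *Ptger1* was at 1.11 ± 0.562 CPM per kb, below every library of *Ptger4*. The last 3 members were close to or at the limit of detection. *Ptger3* had 0 to 30 counts per library, *Ptger2* 0 to 9 counts, and *Ptgds* 1 count in 1 of 18 libraries. A count of 0 allows up to 3 counts, or 0.0579 to 0.437 CPM depending on the library, and this covers counting error only. The filter on low counts kept 8 of the 10 members and left out *Ptger2* and *Ptgds*.

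**Figure D1:**
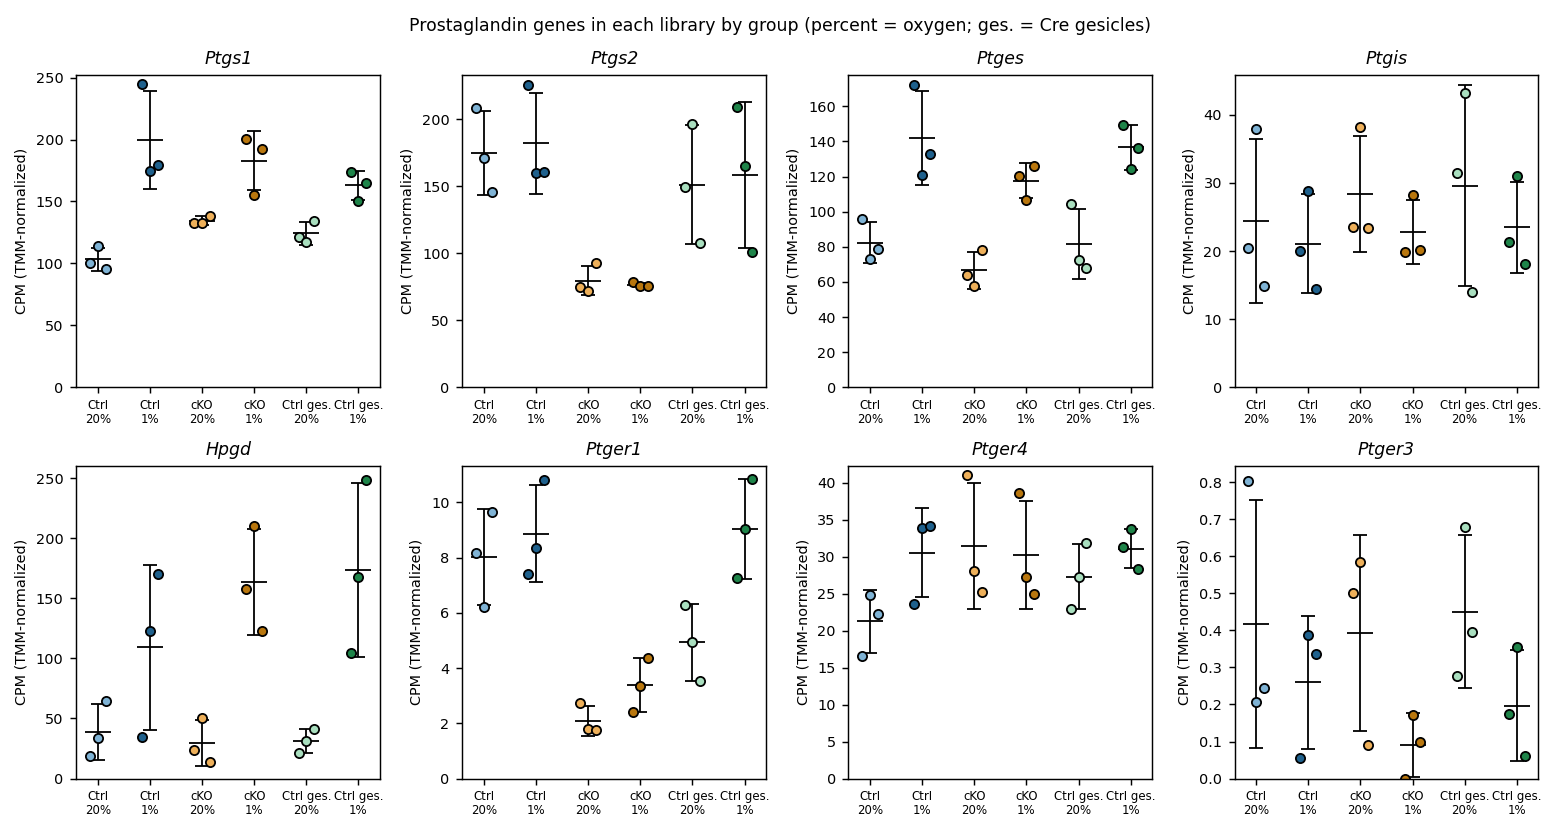
TMM-normalized CPM of the 8 members that passed the filter (y axis, starting at 0) in each library of the 6 groups (x axis, with the O2 level in percent), with points for libraries and bars for the mean ± SD of 3. *Ptgs2* and *Ptger1* are lower in the libraries labelled cKO, from 72.0 to 92.5 CPM for *Ptgs2* and from 1.74 to 4.38 CPM for *Ptger1*, while *Ptges* and *Hpgd* are higher on average in each 1% O2 group than in its 20% O2 counterpart.

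*Ptgs2*, which encodes the inducible cyclooxygenase (COX-2), differed between genotypes and varied little with O2. The gene (ENSMUSG00000032487) lies at chr1:150100031-150108227 on the plus strand of GRCm38. In 20% O2, the Ctrl libraries measured 208, 171 and 146 CPM and the cKO libraries 74.5, 72.0 and 92.5 CPM. Every cKO library thus lay below every Ctrl library. The difference on the log2 scale, called log2FC below, was -1.14 (SE 0.17, edgeR's quasi-likelihood test with Benjamini-Hochberg adjustment, adjusted p = 0.0233). In 1% O2, the comparison that chose the family, the Ctrl libraries measured 226, 159.9 and 161 CPM and the cKO libraries 78.4, 75.8 and 75.9 CPM, with a log2FC of -1.25 (SE 0.17) given here with no test. The 20% O2 comparison sets other libraries against each other, but its estimate of spread also came from the 1% O2 libraries in the same fit. With only the 20% O2 groups in the fit, *Ptgs2* was not called. Replicates with the same number may also come from the same mice at both O2 levels, so the comparison may rest on the same animals. The call in 20% O2 was lost without Ctrl replicate 1 (edgeR adjusted p = 0.148), cKO replicate 2 (0.0529) or cKO replicate 3 (0.0770). With *Xist* as a covariate the log2FC was -1.22 (edgeR adjusted p = 0.00672).

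The O2 level moved *Ptgs2* by less than the spread between replicates. Its mean was 175 ± 31.3 CPM in 20% and 182 ± 37.8 CPM in 1% O2 for Ctrl TFs, a log2 difference of 0.06 (SE 0.17), and 79.7 ± 11.2 against 76.7 ± 1.46 CPM for the libraries labelled cKO, a log2 difference of -0.05 (SE 0.17). Neither was tested, since each shares libraries with the comparison that chose the gene. In gesicle-treated TFs the 20% O2 libraries measured 149, 196 and 108 CPM and the 1% O2 libraries 209, 165 and 101 CPM. These groups overlapped, and the log2FC of 0.07 (SE 0.24) did not pass (edgeR adjusted p = 0.920). In order of mean level the Ctrl and gesicle groups came first, from 182 down to 151 CPM, and overlapped with each other, and the cKO groups came last and overlapped with each other.

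The pericyte and smooth muscle markers examined (*Rgs5*, *Cspg4*, *Myh11* and *Notch3*, all above 1 CPM in every library) also stood apart between genotypes in 20% O2, with summed levels of 93.7 to 161 CPM in Ctrl and 31.6 to 51.4 CPM in cKO libraries. So did the 9 tendon markers, at 10799 to 12791 CPM in Ctrl and 5224 to 10105 CPM in cKO libraries, and the summed skeletal muscle markers, at 22.0 to 41.8 CPM in Ctrl and 9.32 to 15 CPM in cKO libraries. Of those 4 muscle markers only *Acta1* exceeded 1 CPM, and *Ckm*, a defining one, was at 0 in all 18 libraries. The summed Schwann cell markers stood apart the other way, at 0.517 to 0.856 CPM in Ctrl and 1.45 to 2.37 CPM in cKO libraries. In 1% O2 the pericyte and smooth muscle sum was 42.5 to 93.2 CPM in Ctrl and 28.9 to 44.6 CPM in cKO libraries. The tendon sum was 5728 to 13136 CPM in Ctrl and 5538 to 9236 CPM in cKO libraries. For the Schwann cell sum the ranges were 0.469 to 1.55 and 1.43 to 2.13 CPM. These sums overlapped between genotypes. The skeletal muscle sum still stood apart, at 23.5 to 29.6 CPM in Ctrl and 16.4 to 19.7 CPM in cKO libraries. The part of these markers in the *Ptgs2* and *Ptger1* differences was not tested. In bulk libraries, fewer cells of a type and less RNA per cell cannot be told apart.

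*Ptgs1*, the gene of the constitutive cyclooxygenase (COX-1), differed by O2. It is ENSMUSG00000047250, at chr2:36230426-36252272 on the plus strand. In Ctrl TFs it rose from 101, 114 and 95.6 CPM in 20% O2 to 245, 174 and 179.5 CPM in 1% O2, with no overlap and a log2FC of 0.96 (SE 0.15, edgeR adjusted p = 0.00667). This call held with each of the 6 libraries left out in turn (log2FC 0.78 to 1.04, largest edgeR adjusted p = 0.0445). In the libraries labelled cKO the values were 133, 133 and 138 CPM in 20% O2 and 201, 156 and 192 CPM in 1% O2. In gesicle-treated TFs they were 121, 117 and 135 CPM in 20% O2 and 174, 150.2 and 165 CPM in 1% O2. The groups did not overlap in either arm, but the log2FC values of 0.45 (SE 0.15) in cKO and 0.39 (SE 0.13) in gesicle-treated TFs did not pass (edgeR adjusted p = 0.132 and 0.134). The difference between the cKO and the Ctrl response to O2 was -0.51 (SE 0.21) and did not pass either (edgeR adjusted p near 1, unadjusted p = 0.0321). Without Ctrl replicate 1 in 1% O2 it was -0.33.

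Between genotypes *Ptgs1* did not pass the test in 20% O2, at 103 ± 9.43 CPM in Ctrl and 134.6 ± 3.31 CPM in cKO libraries (log2FC 0.38, SE 0.15, edgeR adjusted p = 0.312), although the groups did not overlap. In 1% O2 the log2 difference was -0.13 (SE 0.15), and it was 0.04 without Ctrl replicate 1, which held the highest *Ptgs1* level of all libraries.

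The balance of the cyclooxygenase genes was read as a ratio. The ratio of *Ptgs2* to *Ptgs1*, each per kb, was 1.44 ± 0.272 in Ctrl TFs in 20% O2 and 0.772 ± 0.0122 in 1% O2. In the libraries labelled cKO it was 0.501 ± 0.0575 in 20% and 0.360 ± 0.0464 in 1% O2. It ranged from 1.27 to 1.76 in the 3 Ctrl libraries in 20% O2 and was at most 0.567 in the cKO libraries. Its side of 1 depends on the gene length used. With longest transcripts as lengths, an alternative added after the values were seen, Ctrl TFs in 20% O2 were at 1.09 ± 0.206, with 1 of 3 libraries above 1, and the cKO libraries at no more than 0.430. In gesicle-treated TFs it was 1.05 ± 0.374 in 20% and 0.824 ± 0.270 in 1% O2, with ranges that overlapped. This ratio was formed after the values were seen and is a description with no test.

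**Figure D2:**
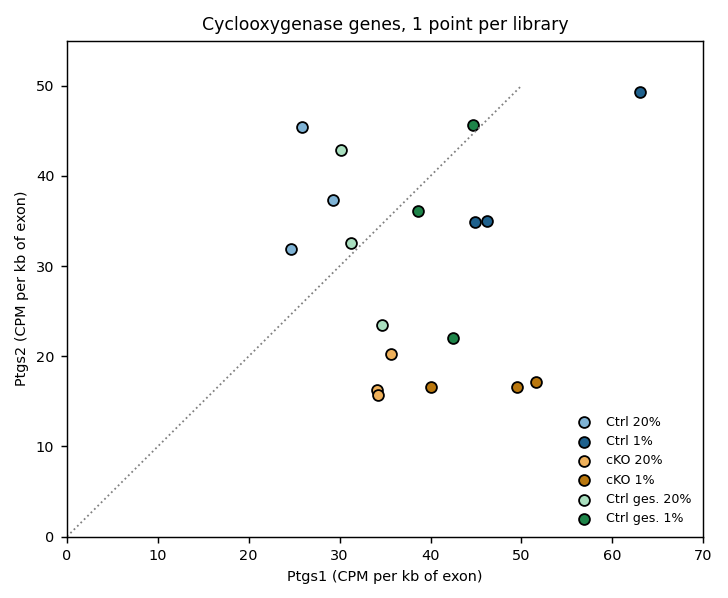
*Ptgs2* (y axis) against *Ptgs1* (x axis) in CPM per kb of exon, with a dotted line at equal levels. Each point is a library and colours mark the 6 groups. The 6 cKO libraries lie below the dotted line, at ratios of 0.331 to 0.567, and the 3 Ctrl libraries in 20% O2 lie above it, at 1.27 to 1.76, though only 1 of these 3 would with longest transcripts as lengths.

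*Ptges* encodes the inducible microsomal prostaglandin E synthase, which acts after the cyclooxygenases. It is ENSMUSG00000050737, at chr2:30889471-30929863 on the minus strand. It was higher in 1% than in 20% O2 in all 3 arms. Ctrl TFs measured 95.6, 72.9 and 78.6 CPM in 20% O2 and 172, 121 and 133 CPM in 1% O2 (log2FC 0.79, SE 0.17, edgeR adjusted p = 0.0280). The libraries labelled cKO measured 63.8, 57.7 and 78.4 CPM in 20% O2 and 120.5, 106 and 126 CPM in 1% O2 (log2FC 0.83, SE 0.17, edgeR adjusted p = 0.0274). Gesicle-treated TFs measured 104, 72.5 and 67.9 CPM in 20% O2 and 149, 124 and 136 CPM in 1% O2 (log2FC 0.74, SE 0.18, edgeR adjusted p = 0.0342). In no arm did the O2 groups overlap, so the library of the same number was necessarily higher in 1% O2 in each of 9, by 1.43-fold to 2.01-fold. The response in cKO minus that in Ctrl TFs was 0.03 (SE 0.23, edgeR adjusted p near 1). By genotype in 20% O2 the mean of *Ptges* was 82.3 ± 11.8 CPM for Ctrl and 66.6 ± 10.7 CPM for cKO libraries, and these groups overlapped (log2FC -0.31, SE 0.16, edgeR adjusted p = 0.391).

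The *Ptges* calls lay near the threshold. In Ctrl TFs the call was lost with any library left out (edgeR adjusted p 0.0529 to 0.130) except 1% O2 replicate 2 (0.0332). In cKO it was lost without 20% O2 replicate 1 (0.0937) or any of the 1% O2 replicates (0.0573 to 0.0798), and in gesicle-treated TFs with any library left out (0.0615 to 0.170) except 20% O2 replicate 1 (0.00979).

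*Hpgd*, the gene of the dehydrogenase that inactivates prostaglandin E2, ranged from 13.8 to 248 CPM over the 18 libraries. It is ENSMUSG00000031613, at chr8:56294585-56321043 on the plus strand. In the libraries labelled cKO it measured 23.3, 50.7 and 13.8 CPM in 20% O2 and 157, 210.1 and 123 CPM in 1% O2. In gesicle-treated TFs it measured 21.4, 31.0 and 41.3 CPM in 20% O2 and 104, 168 and 248 CPM in 1% O2, and in Ctrl TFs 19.0, 33.6 and 64.6 CPM in 20% O2 and 34.3, 123 and 170.1 CPM in 1% O2. The O2 groups did not overlap in cKO and gesicle-treated TFs and overlapped in Ctrl TFs, where replicate 1 stayed low.

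The test called *Hpgd* in gesicle-treated TFs, with a log2FC of 2.47 (SE 0.59, edgeR adjusted p = 0.0339). It did not pass in cKO (2.48, SE 0.62, edgeR adjusted p = 0.0578) or in Ctrl TFs (1.49, SE 0.60, edgeR adjusted p = 0.243). Between libraries of the same number, 1% O2 was higher in each of 9, by 1.80-fold, 3.65-fold and 2.63-fold in Ctrl, 6.74-fold, 4.14-fold and 8.88-fold in cKO and 4.88-fold, 5.41-fold and 6.01-fold in gesicle-treated TFs. In cKO and gesicle-treated TFs the direction follows from the lack of overlap. Only the Ctrl libraries met the check for pairing by number. Of the blocked fits there, that with a replicate block within each arm called *Hpgd* (log2FC 1.37, edgeR adjusted p = 0.0109), while a replicate block shared by all groups did not in edgeR (1.41, adjusted p = 0.244) or DESeq2 (1.39, adjusted p = 0.0801). The call in gesicle-treated TFs was lost with any library left out (edgeR adjusted p 0.0704 to 0.143) except 1% O2 replicate 1 (0.0347), and the value in cKO passed without 20% O2 replicate 2 (3.16, edgeR adjusted p = 0.0190). The cKO response minus the Ctrl response was 1.00 (SE 0.83) and did not pass (edgeR adjusted p near 1). Between genotypes *Hpgd* overlapped at both O2 levels, with log2 differences of -0.42 (SE 0.59, edgeR adjusted p = 0.745) in 20% O2 and 0.58 (SE 0.58, no test) in 1% O2.

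For *Hpgd* and for *Ptgis*, the gene of prostacyclin synthase, the same replicate numbers were highest across conditions. *Hpgd* was highest in replicate 3 and lowest in replicate 1 in all 4 Ctrl and gesicle groups, and highest in replicate 2 and lowest in replicate 3 in both cKO groups. *Ptgis* was highest in replicate 2 in all 6 groups, at 28.3 to 43.3 CPM against 13.9 to 31.5 CPM in the others. Its group means ranged from 21.1 ± 7.25 to 29.6 ± 14.8 CPM, with overlap in every comparison. The log2FC values of *Ptgis* by O2 ran from -0.33 to -0.21 and that by genotype in 20% O2 was 0.21 (SE 0.35), none of which passed (edgeR adjusted p 0.663 to 0.829).

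**Figure D3:**
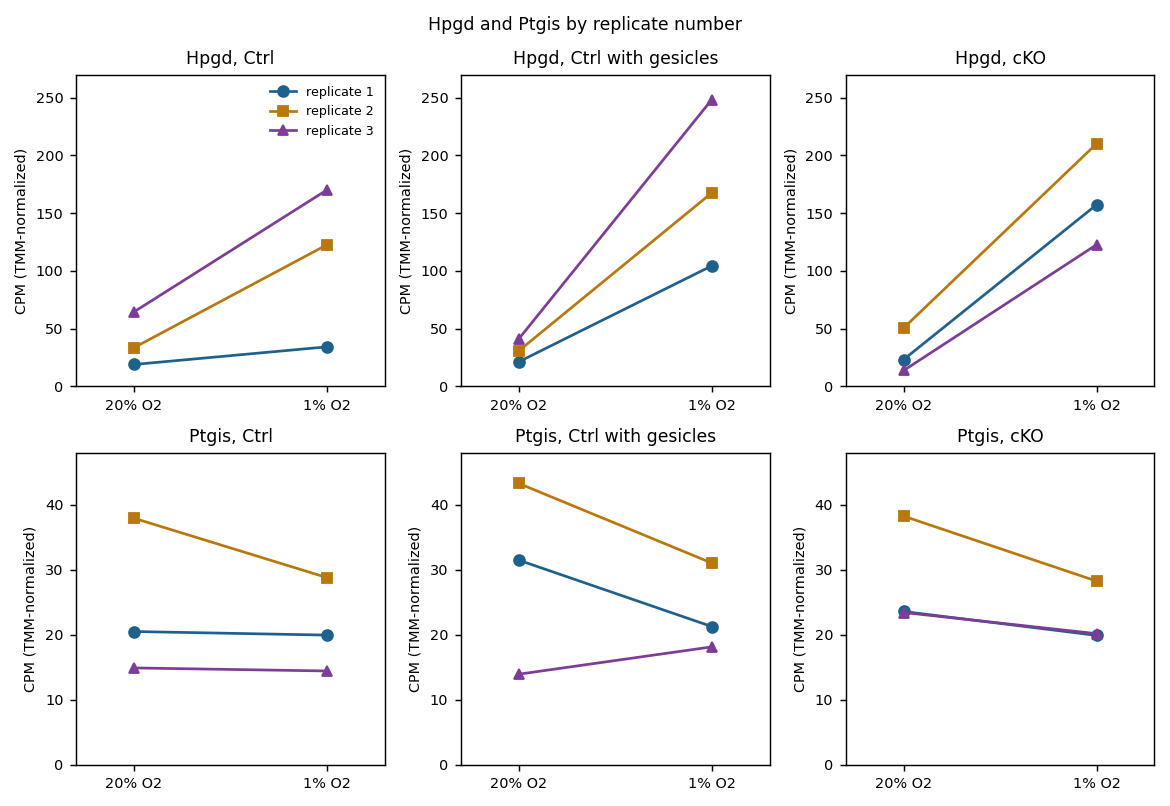
TMM-normalized CPM (y axis, starting at 0) of *Hpgd* (top) and *Ptgis* (bottom) in 20% and 1% O2 (x axis) for Ctrl, gesicle-treated Ctrl and cKO TFs, with a line joining libraries of the same replicate number. All 9 *Hpgd* lines end higher in 1% O2, by 1.80-fold to 8.88-fold, and replicate 2 is the top line in each *Ptgis* panel.

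Among the receptor genes, *Ptger1*, whose product couples to calcium signalling, was lower in the libraries labelled cKO. It is ENSMUSG00000019464, at chr8:83666678-83672753 on the plus strand. In 20% O2 the Ctrl libraries measured 8.17, 6.23 and 9.67 CPM and the cKO libraries 2.72, 1.78 and 1.74 CPM, without overlap (log2FC -1.96, SE 0.28, edgeR adjusted p = 0.0233). In 1% O2 the Ctrl libraries measured 7.42, 8.34 and 10.8 CPM and the cKO libraries 2.42, 3.34 and 4.38 CPM (log2FC -1.36, SE 0.28, no test). The call in 20% O2 was lost without Ctrl replicate 1 (edgeR adjusted p = 0.119) or 3 (0.0818), or without cKO replicate 2 (0.0535) or 3 (0.11). By O2 the log2FC was 0.15 (SE 0.26) in Ctrl, 0.75 (SE 0.28) in cKO and 0.88 (SE 0.27) in gesicle-treated TFs, none of which passed (edgeR adjusted p = 0.839, 0.172 and 0.0972). In gesicle-treated TFs the O2 groups did not overlap, at 6.30, 4.96 and 3.53 CPM in 20% O2 and 7.25, 9.02 and 10.9 CPM in 1% O2, and DESeq2 called that difference (adjusted p = 0.0271).

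The sources used here do not state that counting used the strand. Reads of *Ptger1* and *Ptger4* are therefore uncertain, since reads of a gene and of one that overlaps it on the opposite strand cannot then be told apart, and the part of such reads in their values was not tested.

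*Ptger4*, whose product raises cyclic AMP, was the highest of the 4 *Ptger* genes per kb of exon. It measured 16.6, 24.9 and 22.3 CPM in Ctrl and 41.0, 28.1 and 25.2 CPM in cKO libraries in 20% O2. These groups did not overlap, but the log2FC of 0.56 (SE 0.24) did not pass (edgeR adjusted p = 0.329). With *Xist* as a covariate it was 0.73 and passed (edgeR adjusted p = 0.0265). By O2 it was 0.53 (SE 0.24) in Ctrl, -0.06 (SE 0.24) in cKO and 0.19 (SE 0.22) in gesicle-treated TFs (edgeR adjusted p = 0.297, 0.920 and 0.714). Of its exon bases, 15.3% overlap a processed pseudogene on the opposite strand. *Ptger3*, which lowers cyclic AMP, had group means of 0.0909 to 0.450 CPM, too few counts for its differences to be read, and *Ptger2*, which raises it, was at most 0.204 CPM in any library.

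Counted over the family, 2 of the 8 members tested were called between genotypes in 20% O2, both lower in cKO. They were *Ptger1* and *Ptgs2*, the gene for which the family was chosen. The genotype counts and the median below include *Ptgs2*, so no excess over all genes is read from them. Of all 15850 genes tested in that comparison, 0.347% were called in either direction and 0.202% were called lower. The 20% O2 groups did not overlap for 4 of the members, against 21.2% of all genes. In 1% O2, where the family was chosen, the calls over all genes were 0.0379%, and the groups did not overlap for *Ptgs2* and *Ptger1*, against 27.3% of all genes, from which nothing is read. By O2, *Ptgs2* set aside, 2 of 7 members were called in Ctrl TFs, where 1.88% of all genes were called and 1.47% were called higher. In cKO TFs 1 of 7 was called (2.1% of all genes, 1.4% higher) and, with *Ptgs2*, 2 of 8 in gesicle-treated TFs (2.41% of all genes, 1.64% higher). All of these were higher in 1% O2. The groups did not overlap for 2 of these members in Ctrl (30% of all genes), 3 in cKO (20.6%) and 4 in gesicle-treated TFs (24%). The median log2FC of the 8 members that passed the filter was -0.22 between genotypes in 20% O2, beside 0.03 over all genes. In the comparison of cKO and Ctrl responses to O2, edgeR called 0 of 7 members and 0% of all genes (1 member and 367 genes had an unadjusted p under 0.05), and DESeq2 called 0 members and 2 genes.

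**Figure D4:**
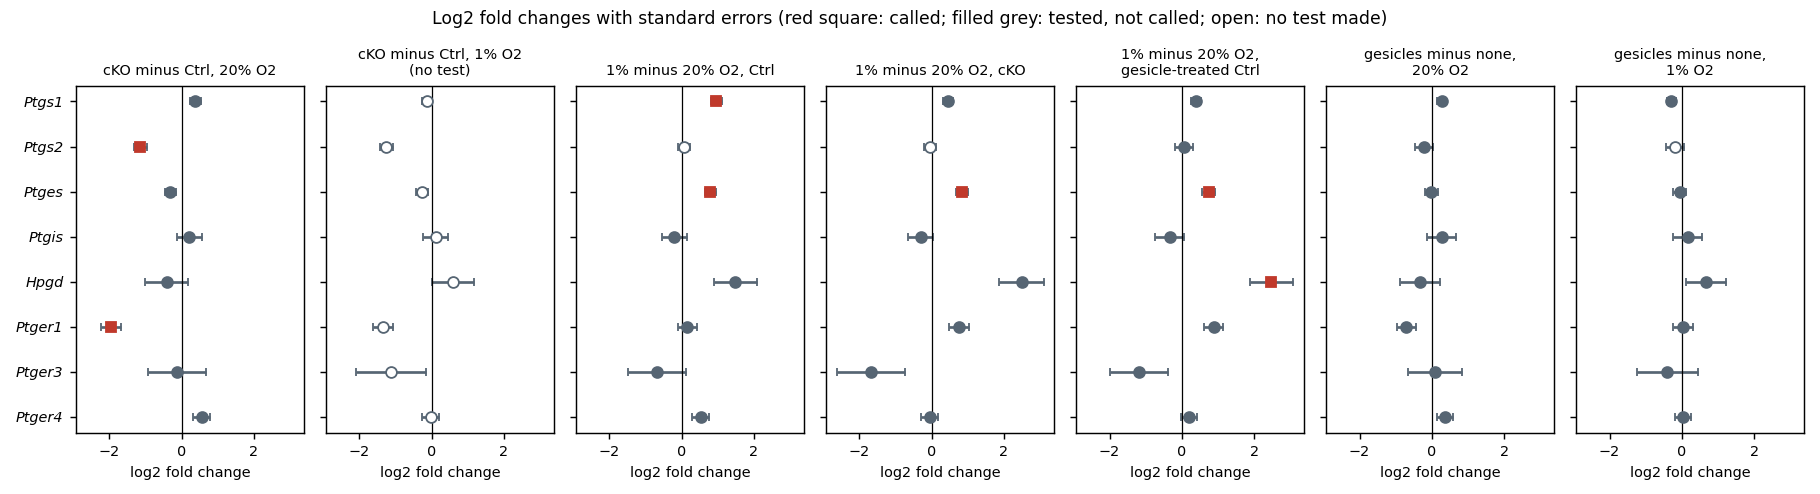
Log2FC (x axis) with its SE for 8 members (y axis) in 7 comparisons, with a panel for each. Red squares passed the test, filled grey circles were tested and did not pass, and open circles were not tested. *Ptgs2* and *Ptger1* lie left of 0 in both comparisons of cKO with Ctrl (-1.14 and -1.96 in 20% O2), *Ptges* lies right of 0 in all 3 O2 comparisons (0.74 to 0.83), and no member passed for gesicles against none.

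Gesicle treatment brings Cre into Ctrl TFs, and its comparison with untreated Ctrl TFs asks whether these genes differ after that route of delivery. edgeR called 0 of 8 members in 20% O2 and 0 of 7 in 1% O2, where 0.0247% and 0% of all 16174 genes tested were called. The groups with and without gesicles did not overlap for *Ptgs1* at either O2 level, as for 12.5% and 6.32% of all genes. At an unadjusted p under 0.05 there was 1 member at each O2 level, and 594 and 324 genes in all, and DESeq2 called 0 members at either level, with 46 and 0 genes in all. *Ptgs2* was at 151 ± 44.4 CPM with gesicles and 175 ± 31.3 CPM without in 20% O2 (log2FC -0.21, SE 0.24, edgeR adjusted p near 1). *Ptger1* was at 4.93 ± 1.39 and 8.02 ± 1.73 CPM (log2FC -0.70, SE 0.27, edgeR adjusted p near 1). In 1% O2 *Ptger1* was at 9.05 ± 1.80 CPM with and 8.86 ± 1.76 CPM without gesicles. The gesicle and cKO comparisons share the Ctrl libraries, and the difference between their effects was not tested. No Cre transcript counts were found in the gesicle libraries, and *Hif1a* was at 362 ± 31.0 CPM there in 20% O2, so these counts hold no check of recombination.

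The rest of the pathway was read from gene lists. The lists of arachidonate release, other prostanoid synthases, transport and reduction of prostaglandins, other prostanoid receptors, and lipoxygenases and leukotrienes held 31 genes that passed the filter in the 12 Ctrl and cKO libraries. edgeR called 0 of them between genotypes in 20% O2 and 0 by O2 in Ctrl or cKO TFs. At an unadjusted p under 0.05 there were 4, 6 and 5 of them, and DESeq2 called 1, 1 and 2. Of all 15850 genes tested, edgeR called 0.347%, 1.88% and 2.1% in these comparisons. At an unadjusted p under 0.05 there were 2264, 2547 and 3140 of all genes, and DESeq2 called 443, 696 and 892. In gesicle-treated TFs edgeR called 0 of 32 by O2, with 6 at an unadjusted p under 0.05 and 1 called by DESeq2. Of all 16174 genes edgeR called 2.41% there, with 2805 at an unadjusted p under 0.05 and 732 called by DESeq2. *Pla2g4a*, the cytosolic phospholipase that releases arachidonic acid, stood at 133 to 175 CPM as a group mean. *Ptgfr*, the prostaglandin F receptor gene, stood at 53.9 to 90.1 CPM and *Ptgir*, the prostacyclin receptor gene, at 18.6 to 31.4 CPM. These 3 genes were named after their values were seen.

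Downstream of the receptors that raise cyclic AMP, all 23 genes of the list of cyclic AMP signalling parts passed the filter. Their median log2FC between genotypes in 20% O2 was -0.25, beside 0.03 over all genes. edgeR called 1 of the 23, where it called 0.347% of all genes. Of the 23, 6 had an unadjusted p under 0.05 (2264 of all 15850 genes) and DESeq2 called 2 (443 genes). The gene called by edgeR was *Prkar2a*, a regulatory subunit of protein kinase A, at 177 ± 3.42 CPM in Ctrl and 110.1 ± 19.5 CPM in cKO libraries (log2FC -0.69, SE 0.13, edgeR adjusted p = 0.0448). In 1% O2 it was at 173 ± 9.77 and 94.5 ± 2.95 CPM. The call of *Prkar2a* was lost with any library left out (largest edgeR adjusted p = 0.232) except cKO replicate 1. By O2 edgeR called 2 of the 23 in each arm, where it called 1.88%, 2.1% and 2.41% of all genes in Ctrl, cKO and gesicle-treated TFs. The called genes were 2 other regulatory subunits, and both rose in all 3 arms. *Prkar2b* rose by 1.39 in Ctrl, 1.58 in cKO and 1.43 in gesicle-treated TFs on the log2 scale (SE 0.27, 0.27 and 0.24, edgeR adjusted p = 0.0185, 0.0114 and 0.00390). *Prkar1b* rose by 0.71, 0.67 and 0.79 (SE 0.14, 0.14 and 0.16, edgeR adjusted p = 0.0236, 0.0343 and 0.0161). With a library left out, the *Prkar2b* call held throughout in cKO and gesicle-treated TFs but in Ctrl TFs only without 1% O2 replicate 2 (edgeR adjusted p up to 0.0937). That of *Prkar1b* held only without 1% O2 replicate 2 in Ctrl (up to 0.118), without 20% O2 replicate 2 or 1% O2 replicate 3 in cKO (up to 0.139), and without 20% O2 replicate 1 or 1% O2 replicates 1 or 3 in gesicle-treated TFs (up to 0.0712). The medians of the list by O2 were between -0.07 and 0.06.

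Of 12 cyclic AMP and early response genes that passed the filter, *Nr4a1*, an orphan nuclear receptor gene induced within hours of stimulation, fell in 1% O2 in all 3 arms. It went from 41.5 ± 4.06 to 13.0 ± 2.76 CPM in Ctrl, from 21.3 ± 3.12 to 7.67 ± 2.29 CPM in cKO and from 33.1 ± 3.84 to 16.7 ± 1.01 CPM in gesicle-treated TFs (edgeR adjusted p = 0.00182, 0.00770 and 0.0120). *Gem*, a small GTP-binding protein gene, rose in Ctrl and cKO TFs by 1.72 and 1.45 on the log2 scale (SE 0.32 and 0.32, edgeR adjusted p = 0.0164 and 0.0377). With a library left out, the *Nr4a1* call was lost in 1 case, without gesicle replicate 3 in 1% O2 (edgeR adjusted p = 0.0536). That of *Gem* was lost in Ctrl TFs without 20% O2 replicate 1 or 3 or 1% O2 replicate 1 (0.0646 to 0.0937), and in cKO with any library left out (0.0577 to 0.147) except 20% O2 replicate 2. The other 10 did not pass by O2 in any arm. By O2 edgeR thus called 2, 2 and 1 of the 12 in Ctrl, cKO and gesicle-treated TFs, against 1.88%, 2.1% and 2.41% of all genes. Between genotypes in 20% O2 it called 0 of the 12 (0.347% of all genes). There 3 had an unadjusted p under 0.05 (2264 of all 15850 genes) and DESeq2 called 2 (443 genes). Of the NF-κB inducible genes, which like *Ptgs2* respond to inflammatory cytokines, 7 passed the filter in the Ctrl and cKO libraries. All 7 were higher in 1% O2 in Ctrl TFs, with log2FC values of 0.28 to 1.33 and a median of 0.90 (0.0002 over all genes). Of them 5 had an unadjusted p under 0.05 (2547 of all 15850 genes) and DESeq2 called 3 (696 genes). In cKO TFs the log2FC ran from -0.40 to 1.09, with a median of 0.26. There 2 were under 0.05 (3140 genes) and DESeq2 called 2 (892 genes). In gesicle-treated TFs 8 passed the filter, with log2FC values of -1.36 to 1.11 and a median of 0.15. There 2 were under 0.05 (2805 of all 16174 genes) and DESeq2 called 2 (732 genes). edgeR called 1 gene of the list in each arm, the adhesion molecule gene *Vcam1*. It rose in 1% O2 in all 3 arms, by 0.61, 1.03 and 0.78 on the log2 scale (SE 0.13 in each, edgeR adjusted p = 0.0359, 0.00233 and 0.00352). With a library left out its call held throughout in cKO and gesicle-treated TFs, but in Ctrl TFs only without 1% O2 replicate 1 (largest edgeR adjusted p = 0.166). Between genotypes in 20% O2 edgeR and DESeq2 each called 0 of the 7, and 0 had an unadjusted p under 0.05 (2264 of all genes). For the cKO minus the Ctrl response to O2 each also called 0 of the 7, with 2 under 0.05 (367 of all genes).

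Among the genes whose levels followed *Ptgs2* most closely across the 18 libraries, out of 16173 others, were *Prkar2a* (Pearson r = 0.916 over log2 CPM), *Tns4* and *Loxl4* (r = 0.911 each) and *Selenoi* (r = 0.885). *Loxl4* encodes a collagen cross-linking enzyme of the lysyl oxidase family. After the group means were removed, r was 0.662 for *Prkar2a*, 0.720 for *Tns4*, 0.694 for *Loxl4* and 0.525 for *Selenoi*. These values describe 18 libraries that share their groups and may share mice, and carry no p. The genes were ranked by r over these same libraries, which include those of the comparison that chose *Ptgs2*. The values after removal of group means come from the same libraries and are therefore no independent check. *Ptger1*, the other member that was lower in the libraries labelled cKO, correlated with *Ptgs2* at r = 0.720 over all libraries and at -0.232 once group means were removed.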

How the data were processed

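Poly-A RNA-seq of 18 TF libraries (151 bp paired-end reads) was analysed from the deposited table. Per the labels and methods, the authors trimmed the reads, mapped them with STAR to GRCm38 and estimated counts per gene with RSEM 1.3.3, and they deposited these expected counts as whole numbers without normalization. Whether counting used the strand is not given in the sources used here. The labels give 10% serum where the methods give 1%. Groups followed the labels.

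Low-count genes were removed with filterByExpr. Group means were then compared by edgeR 4.0.16 with TMM factors and the quasi-likelihood F test, using the 12 libraries without gesicles (15850 genes) and, for gesicle comparisons, all 18 (16174 genes). A gene was called at a Benjamini-Hochberg adjusted p under 0.05 over all genes tested and a fold change of at least 1.5. Levels are CPM on the 18-library TMM scale (factors 0.962 to 1.03), the SE is the log2 fold change over the square root of F, and lengths are unions of GENCODE M21 exons. A depth of 6857558 to 51806453 counts sets the precision. No library was a copy of another (smallest chi-square per degree of freedom 15.3). Nothing in the labels says which libraries share a mouse, so p-values measure the spread between these samples. Correlations of deviations between libraries of the same number were above 0.1 for every pair in Ctrl by O2 (0.271, 0.300 and 0.458) and in gesicles against none. This did not hold in the other comparisons, where numbers were not taken as pairs. The main tests used no pairing in any comparison, and only the alternatives with a replicate block did. Folds between libraries of the same number in cKO and gesicle-treated TFs are descriptions.

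Alternatives were DESeq2 1.42.0, RLE size factors, other filters, replicate blocks, other sets of libraries in the fit, thinning, *Xist* as a covariate, a test against a fold change of 1.5 and each library left out in turn. Scripts were tested on simulated data. The members, lists and tests were chosen with earlier results of these data known. The named genes are the members, *Hif1a*, up to 3 called genes per list and comparison, and the closest correlates of *Ptgs2*, of which some items are not reported here; other genes named were chosen after their values were seen. R 4.3.3 and Python 3.11.15 were used.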

Additional observations from a re-analysis of the deposited data

Results flagged for a closer look

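*Ptgs1* met a rule for opposite effects: every gesicle-treated library was above every untreated Ctrl library in 20% O2 (log2 fold change 0.27, SE 0.13) and below every one in 1% O2 (-0.29, SE 0.13; -0.10 without Ctrl replicate 1 in 1% O2). The levels were 124 ± 9.23 against 103 ± 9.43 CPM in 20% O2 and 163 ± 11.8 against 199.6 ± 39.3 CPM in 1% O2. A test of the difference between these effects, added after the values were seen, gave -0.56 (SE 0.19) and did not pass (edgeR adjusted p near 1). In that test edgeR called 0 of all genes, with 243 at an unadjusted p under 0.05, and DESeq2 was not run on it. Groups of 3 were too small for a check of single outlying samples.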

How the results depend on the processing

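No log2 fold change that passed the main test changed sign under any alternative. Between genotypes in 20% O2 the number of members called went from 2 to 0 in the test against a fold change of 1.5, to 0 with only the groups compared in the fit and to 1 with all 18 libraries in 1 fit, where *Ptgs2* had an adjusted p of 0.0530, and ranged from 0 to 2 with a library left out. By O2 in Ctrl TFs it went from 2 to 1 with thinned counts or only the groups compared, to 0 against a fold change of 1.5, and was 1 to 2 with a library left out. In cKO TFs it went from 1 to 2, *Hpgd* joining *Ptges*, with no filter, all 18 libraries, the replicate block within each arm, DESeq2 or DESeq2 with the replicate block, to 0 against a fold change of 1.5 or with only the groups compared, and was 0 to 2 with a library left out. It was 0 without 20% O2 replicate 1 or any 1% O2 replicate, the shallow replicate 1 included. In gesicle-treated TFs it went from 2 to 0 against a fold change of 1.5 and to 1 with only the groups compared, and was 0 to 1 with a library left out. With longest transcripts as lengths *Ptgs1* was at 52.8 and *Ptger4* at 7.59 CPM per kb. In the 1% O2 genotype comparison, *Ptgs1* ran from -0.22 to 0.04 with a library left out. There *Hpgd* ranged up to 1.06 and *Ptger3* down to -1.67. The causes were not tested.

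An additive replicate block kept *Ptgs2* and *Ptger1* called between genotypes in 20% O2 (log2 fold change -1.13 and -1.93, edgeR adjusted p = 0.0348 and 0.0313), and apart from *Hpgd* by O2 with the block within each arm no block in edgeR changed the call of a member. Ctrl and cKO libraries of the same number come from different mice. Their deviations in 20% O2 correlated at -0.149, -0.0407 and -0.104, and the numbers were not taken as pairs between genotypes. *Hpgd* in cKO TFs was 2.65 with the block within the arm (edgeR adjusted p = 0.000778), where same-number deviations correlated at 0.0956, 0.0921 and 0.368 and the numbers were not taken as pairs. Calls over all genes moved more. Between genotypes in 20% O2 they were 55 in the main test, 281 with no filter, 443 with DESeq2, 473 with DESeq2 and the block, 87 with all 18 libraries, 33 after thinning, 1 against a fold change of 1.5, 1 with only the groups compared, and 1 to 154 with a library left out. By O2 the main, DESeq2 and fold change of 1.5 counts were 298, 696 and 64 in Ctrl, 333, 892 and 43 in cKO, and 390, 732 and 62 in gesicle-treated TFs, and the block within each arm gave 455, 476 and 472. The values for single members and for the called list genes were also compared with the main ones, leaving aside the comparison that chose the family. Of these, 106 lost a call, 10 gained one, 3 moved beyond the replicate spread and 1123 did none of these. The 1123 include values that were not called or not tested in the main analysis, so they are not a count of calls kept. All 106 losses fell among values that passed the main test.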

Other observations

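*Abcc4*, which encodes an exporter of prostaglandins and cyclic nucleotides, was noticed after its values were seen. Its mean in 20% O2 was 43.4 ± 2.81 CPM for Ctrl TFs against 23.9 ± 7.70 CPM for the libraries labelled cKO (SD, n = 3 each), without overlap, and at 72.5 ± 17.5 and 26.7 ± 6.73 CPM in 1% O2. The importer gene *Slco2a1* was at 129 ± 28.5 and 96.1 ± 33.5 CPM in 20% O2 and at 102 ± 10.2 and 53.2 ± 6.27 CPM in 1% O2. In 20% O2 the log2 fold change of *Abcc4* was -0.87 (SE 0.26). It did not pass in edgeR (adjusted p = 0.188, unadjusted p = 0.00523) and was called by DESeq2 (adjusted p = 0.0399). *Slco2a1* overlapped in 20% O2 and passed in neither (adjusted p = 0.392 in edgeR and 0.343 in DESeq2). In 1% O2 they were not tested.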
